A study of Mus musculus with 2 samples.

Results

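The genes described here encode the natriuretic peptides (*Nppa*, *Nppb* and *Nppc*), their receptors (*Npr1*, *Npr2* and *Npr3*), and 3 enzymes that make or degrade the peptides (*Corin*, *Furin* and *Mme*). They were chosen by name from knowledge of the pathway and found through the RefSeq accession of each array probe. All 9 genes were represented, by 10 of the 55676 noncontrol probes of the array and by 19 of its 59305 noncontrol spots. A symbol could be given to 20282 genes on the array, of which 13846 were measured, that is, had a probe well above background on at least 1 array. Of the 9 genes, 7 were measured and 6 were well above background on both arrays.

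The study compared left ventricles of 12-week-old male *H-Bmal1*-/- mice with those of control littermates, both collected at ZT 2, that is, 2 h after lights on. *H-Bmal1*-/- mice carried a floxed *Bmal1* gene together with a *Cre* transgene driven by the α-myosin heavy chain promoter, which removes the clock gene *Bmal1* from cardiomyocytes and leaves it in the other cells of the heart. The control mice carried the floxed *Bmal1* gene without the *Cre* transgene, although the sample labels give their genotype as wild type. No mice with the *Cre* transgene alone were on these arrays. RNA from 6 animals of each genotype was combined into 1 pool and labeled with Cy3, and each pool was hybridized to 1 Agilent mouse array of the same slide. There is therefore 1 array per genotype, no measure of the spread between animals, and no test of any difference between genotypes. At a single time point, a change in the level of a transcript and a shift in the timing of its daily rhythm cannot be told apart.

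Natriuretic peptides are hormones that the heart secretes when its walls are stretched. Atrial natriuretic peptide (ANP, from *Nppa*) and B-type natriuretic peptide (BNP, from *Nppb*) act on the kidney and on vessels through natriuretic peptide receptor A (*Npr1*), a membrane enzyme that makes cyclic GMP (cGMP). C-type natriuretic peptide (CNP, from *Nppc*) acts mainly through receptor B (*Npr2*), whereas receptor C (*Npr3*) binds all the peptides and removes them from the circulation. The precursors are cut by corin and furin, and neprilysin (*Mme*) degrades the active peptides. In the adult heart ANP comes mostly from the atria, and ventricular *Nppa* and *Nppb* transcripts are widely used as markers of hemodynamic load and hypertrophy.

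Both cardiac hormone genes were higher in the *H-Bmal1*-/- pool, *Nppa* by 7.31-fold and *Nppb* by 2.04-fold. *Corin* was 1.55-fold lower in that pool, whereas *Npr2*, *Npr3* and *Furin* differed by less than 1.5-fold. *Mme* was 3.43-fold lower when its dim *H-Bmal1*-/- signal was set to a floor, and within 1.5-fold with another background correction. *Nppc* and *Npr1* were not well above background in either pool. These values are ratios of the processed signal after each array was set relative to the 75th percentile of its own noncontrol spots, which was 190.1 on the *H-Bmal1*-/- array and 171.1 on the control array. Of the 7 genes measured, 2 (28.6%) were at least 1.5-fold higher in the *H-Bmal1*-/- pool, against 5.91% of all measured genes. A further 2 (28.6%) were lower by 1.5-fold or more, against 5.69% of all measured genes. The median log2 ratio of the 7 genes was 0.06, beside -0.01 over all measured genes, so that the genes did not move one way as a group. The members were picked with earlier results of these arrays known, and these shares describe them and test nothing.

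**Figure D1:**
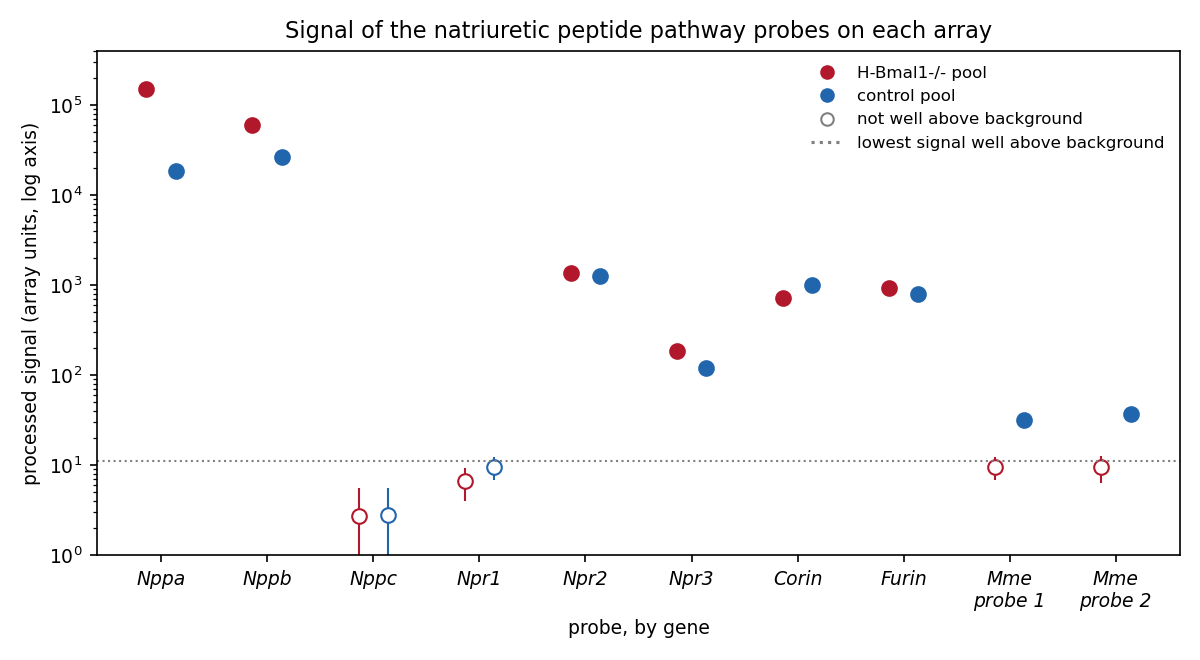
Processed signal of each probe (y axis, array units on a log scale) for the 9 genes (x axis), with the *H-Bmal1*-/- pool on the left and the control pool on the right of each pair, and bars for the scanner software's error estimate (those of *Nppc* run below the axis). Open circles are not well above background. The *H-Bmal1*-/- signals of *Nppa* and *Nppb* lie above those of the control pool, and both *Mme* probes are well above background in the control pool only.

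Some facts of the whole arrays bear on these values. The scanner software called 29672 of the 59305 noncontrol spots well above background for the *H-Bmal1*-/- pool and 29288 for the control pool, and none was saturated. *Arntl*, the official symbol of the deleted gene *Bmal1*, had a signal of 328 in the *H-Bmal1*-/- pool and 513 in the control pool, a log2 ratio of -0.80. The sources used here do not say whether its 1 probe lies in the deleted stretch, and non-cardiomyocytes keep the gene, so that it checks the labels only in part. The sample titles give the tissue as heart, and the paper as left ventricle. Of 8 ventricular cardiomyocyte markers, 7, including *Myl2*, *Myl3* and *Irx4*, were well above background on both arrays, and *Hey2* was so in the control pool only. Some of the 8, such as *Myh6* and *Tnnt2*, are not limited to the ventricle. If the arrays are left unscaled, the median of all measured genes moves by 0.15 to 0.14. The share of higher genes among all those past 1.5-fold is then 71.9%, against 50.9% with scaling.

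*Nppa* is the member with the best measured signal, because its probe was printed at 10 places on each array. The lowest, median and highest of the 10 signals were 145774, 152355 and 156213 in the *H-Bmal1*-/- pool, against 18166, 18692 and 19597 in the control pool. Every spot in the *H-Bmal1*-/- pool was thus far above every spot in the control pool, and the ranges did not overlap. The means were 151775 ± 3495 in the *H-Bmal1*-/- pool and 18686.5 ± 419 in the control pool (SD over 10 spots of 1 array, which is technical spread and says nothing of the animals). Set spot by spot after scaling, the log2 ratio was 2.87 ± 0.04 (SD, 10 spots), with a range from 2.81 to 2.93. This corresponds to a 7.31-fold higher signal. Spots of a probe repeated at least 8 times had a median SD of 0.07 over the 247 such probes that were well above background, so that the *Nppa* probe was among the more repeatable.

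**Figure D2:**
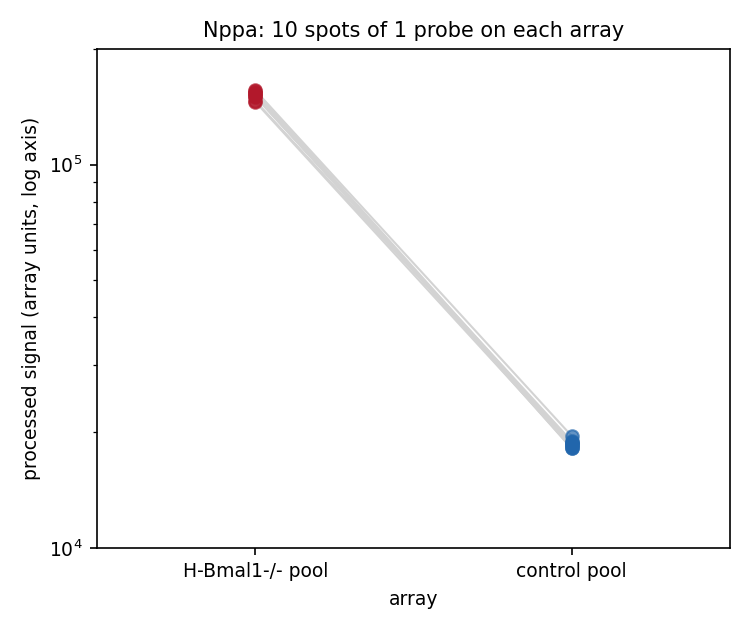
Processed signal (y axis, array units on a log scale) of the 10 spots of the *Nppa* probe on the *H-Bmal1*-/- array (left) and on the control array (right). Gray lines join spots at the same place, and all *H-Bmal1*-/- spots lie between 145774 and 156213, above all control spots.

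In the order of the log2 ratio over the 13050 genes well above background on both arrays, *Nppa* took place 7 from the top. The genes just above it were *Slc17a7* (2.99), *Fut7* (2.97) and *Fhit* (2.94), and those just below were *Dnah6* (2.84), *Ccn2* (2.83) and *Ankmy1* (2.82). Likeness here means only a similar ratio between 2 arrays. Most of these neighbors were dim in the control pool, where *Fut7* had a signal of 12.0 and *Ankmy1* of 13.8. With a normexp background correction, which compresses the ratios of dim probes, the 5 neighbors other than *Ccn2* had log2 ratios between 1.12 and 2.19, whereas *Nppa* was at 2.94 and *Ccn2*, a matricellular protein gene, at 2.84.

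*Nppb* had a signal of 59722 in the *H-Bmal1*-/- pool and 26355 in the control pool. Its probe was printed once per array. Its log2 ratio was 1.03, with an error estimate of 0.20 computed from the scanner software's errors of the signals on both arrays. The same 0.20 was obtained for *Nppa*, *Npr2*, *Corin* and *Furin*, so that it is not a spread measured for each gene. The *H-Bmal1*-/- value is higher by more than that error and by more than 0.26, a spread that 95% of the repeated probes stayed under. *Nppb* took place 216 of 13050, between *Neurl1a*, *Kif5c* and *C2cd4c* above it and *Iah1*, *Sirpb1b* and *Tspan9* below it, all at 1.03. Across 11 other ways of processing the signals, its log2 ratio stayed between 1.02 and 1.18, and that of *Nppa* between 2.86 and 3.02.

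The hormone genes thus differed in size of change. The log2 ratio of *Nppa* exceeded that of *Nppb* by 1.84, or 3.58-fold, and by 1.82 to 1.84 across the other ways of processing. A single scaling factor per array cannot move this difference, since both genes were read on the same pair of arrays. *Nppc*, the CNP gene, had signals of 2.76 in the *H-Bmal1*-/- pool and 2.78 in the control pool, with error estimates of 2.77 and 2.79. Neither signal was well above background, for which the lowest value on each array was 11.1, and no ratio is given.

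**Figure D3:**
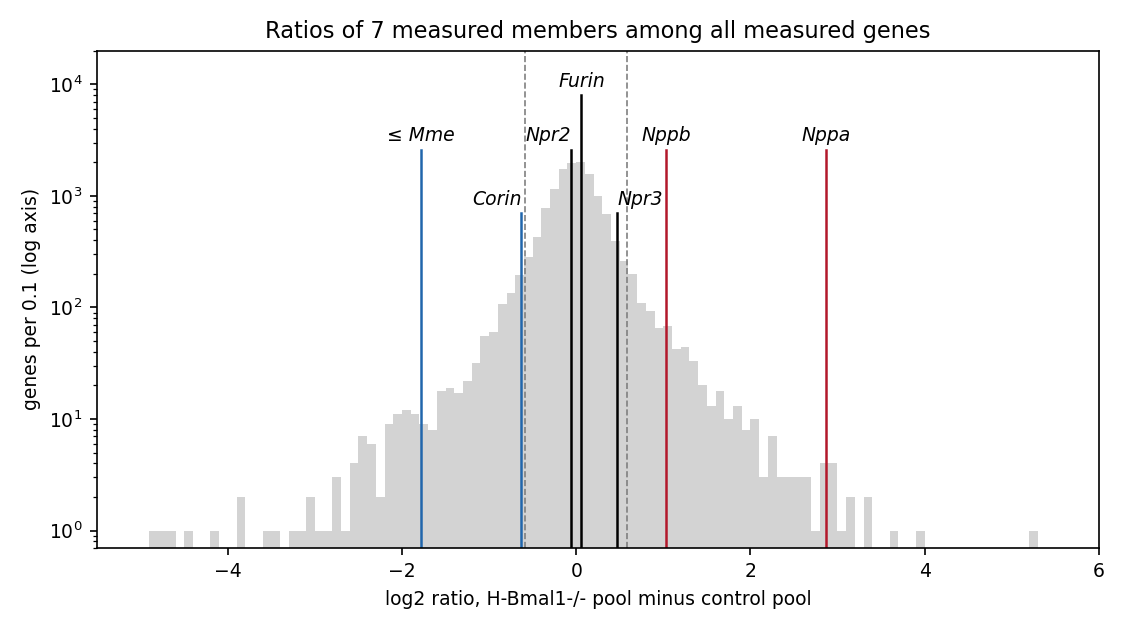
Number of measured genes (y axis, log scale) by log2 ratio of the *H-Bmal1*-/- pool over the control pool (x axis, bins of 0.1), with the 7 measured members marked and dashed lines at 1.5-fold. *Nppa* at 2.87 and *Nppb* at 1.03 lie in the upper tail, *Corin* at -0.63 and the bound of *Mme* at -1.78 in the lower tail, and *Npr2*, *Furin* and *Npr3* in between.

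*Nppb* and *Nppa* lie beside each other on mouse chromosome 4, in this order and on the same strand. The bases before their transcription starts are shown because these genes had the 2 highest ratios of the 9. They were read from the RefSeq promoter table of GRCm38.p6, which held windows for all 9 genes (12 windows, as *Furin* and *Mme* have several starts there). The 250 bases before each start were searched on both strands for the E-box CACGTG that BMAL1 binds with its partner, for GATA sites (AGATAA or TGATAA), the NKX2-5 site TNAAGTG, the T-box site AGGTGT, the M-CAT site CATTCC, the CArG box, and TATAAA. Matches are in capitals. The *Nppa* run is chr4:148000472-148000721, plus strand, and the *Nppb* runs are chr4:147985794-147985823 and chr4:147985868-147985897, plus strand. An earlier annotated start of *Nppb* lies before both of its runs, which are thus within the annotated gene.
*Nppa*, 250 bases before the start: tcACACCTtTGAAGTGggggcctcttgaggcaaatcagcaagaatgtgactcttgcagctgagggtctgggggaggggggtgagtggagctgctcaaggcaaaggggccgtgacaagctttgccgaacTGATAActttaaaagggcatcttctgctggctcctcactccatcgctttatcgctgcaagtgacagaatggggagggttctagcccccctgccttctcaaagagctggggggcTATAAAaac
*Nppb*, positions -106 to -77: aGGAATGcagcTGATAAatcagAGATAAcc
*Nppb*, positions -32 to -3: gTATAAAaggcagaggcaccgttgttgaag

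Counted from the base before the start as -1, the *Nppa* window held a T-box match at -248 to -243 (opposite strand), an NKX2-5 match at -241 to -235, a GATA match at -122 to -117, and TATAAA at -9 to -4. The *Nppb* window held an M-CAT match at -105 to -100 (opposite strand), GATA matches at -95 to -90 and -84 to -79, and TATAAA at -31 to -26. No match overlapped another. Of the 12 windows, only those of *Nppa* and *Nppb* held a GATA match. That share is close to the 16.6% of all 32851 promoters in the table, so that it is not a result about these genes. TATAAA was in 12.4% of all promoters, M-CAT in 12.6%, the T-box site in 11.8% and the NKX2-5 site in 3305 of the 32851. Among the other members, *Nppc* and a window of *Furin* also held TATAAA, *Npr2* a T-box match, *Furin* an NKX2-5 match and *Mme* an M-CAT match. None of the 12 windows held the E-box (6.02% of all promoters) or the CArG box (1.47%), which says only that these letters are not in these windows. A match is a run of letters and not a site shown to be bound.

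*Corin* encodes the cardiomyocyte protease that cuts pro-ANP. Its signal was 716 in the *H-Bmal1*-/- pool and 998 in the control pool, a log2 ratio of -0.63 with an error estimate of 0.20. The *H-Bmal1*-/- signal was thus lower, by 1.55-fold, while that of the gene of its main substrate was higher. In the order of ratios, 3.73% of genes lay below *Corin*. Its size is close to the 1.5-fold limit, and the log2 ratio was -0.48 without scaling and -0.56 with normexp, both within 1.5-fold. *Furin*, a protease of the secretory pathway that cuts pro-BNP among many other precursors, had a signal of 921 in the *H-Bmal1*-/- pool and 793 in the control pool. Its log2 ratio of 0.06 was within the error estimate of 0.20. The log2 ratio of *Corin* minus that of *Furin* was -0.69 (-0.70 to -0.65 across the other ways of processing).

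Of the receptors, *Npr1* gave signals of 6.72 in the *H-Bmal1*-/- pool and 9.62 in the control pool, with error estimates of 2.70 and 2.81. Its 1 probe was not well above background on either array, so no ratio is given for the receptor of ANP and BNP, and the absence of a signal at this probe does not show that the ventricle lacks the transcript. *Npr2*, the CNP receptor, had 1359 in the *H-Bmal1*-/- pool and 1278 in the control pool. After scaling its log2 ratio was -0.06, within the error estimate of 0.20, and 0.09 without scaling. *Npr3*, the clearance receptor, had 185 in the *H-Bmal1*-/- pool and 120 in the control pool, a log2 ratio of 0.47 with an error estimate of 0.21. The *Npr3* signal was thus 1.39-fold higher, under the 1.5-fold limit, with 7.13% of genes above it in the order of ratios. Its log2 ratio was 0.31 with normexp and 0.62 without scaling, where it passed the limit. Between these receptors the log2 ratio differed by 0.53, *Npr3* over *Npr2*, with 0.35 to 0.57 across the other ways of processing.

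*Mme* was read by 2 probes. Their signals were 9.65 and 9.52 in the *H-Bmal1*-/- pool, where neither was well above background, against 31.8 and 36.7 in the control pool, where both were. Both probes were thus lower in the *H-Bmal1*-/- pool. The measured log2 ratios were -1.87 and -2.10. Since the *H-Bmal1*-/- side did not pass the background test, its dim signal was replaced by the lowest signal well above background on that array. This gave at least 3.19-fold and at least 3.69-fold lower signals, and at least 3.43-fold for the gene. These limits hold only relative to that floor, which is not a strict upper limit for a dim spot. All 4 signals are dim, and with normexp the log2 ratio was -0.51, within 1.5-fold. In a mixture of cells, fewer cells of a type and less RNA per cell cannot be told apart, for *Mme* and for every other gene here.

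**Figure D4:**
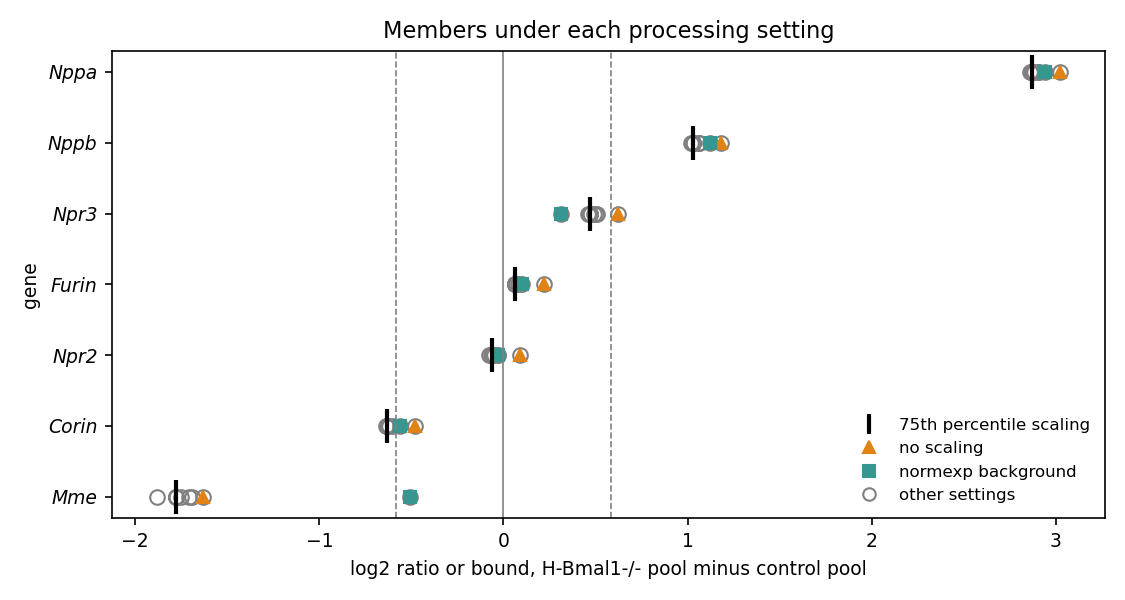
Log2 ratio of the *H-Bmal1*-/- pool over the control pool (x axis, a bound for *Mme*) for each measured gene (y axis) with 75th percentile scaling (black bars) and with 11 other ways of processing (10 for *Mme*), of which no scaling (triangles) and normexp (squares) are marked. Dashed lines stand at 1.5-fold. *Nppa* and *Nppb* stay above the upper line throughout, *Corin* and *Mme* cross the lower line and *Npr3* the upper.

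The wider pathway was described by lists of genes written from textbook knowledge with earlier results of these arrays known. Counts past 1.5-fold were read against 5.91% higher and 5.69% lower among all measured genes. Counts above or below 0 stand beside 6679 of all 13846 measured genes above 0. Of 12 other proteases, ligands and clearance receptors of the peptides (a list that holds *Npr3* again), 7 were measured, with a median of 0.12. None was 1.5-fold higher and *Lrp2* (megalin, an endocytic receptor) was lower at -0.71, from signals of 18.5 in the *H-Bmal1*-/- pool and 27.2 in the control pool. It was at -0.15 with normexp. Without scaling 2 genes were higher by 1.5-fold or more, *Ide* at 0.66 and *Npr3* at 0.62, and 0 were lower, with *Lrp2* at -0.55. *Ide*, the insulin-degrading enzyme, which also cleaves ANP, was at 0.51 and *Dpp4* at 0.21, whereas *Pcsk6*, a furin-like protease that cuts corin, was at -0.09 (0.06 without scaling) and *Ece1* at 0.09. *Ostn*, whose peptide binds *Npr3*, was not well above background.

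Downstream of the receptors, 18 of 21 cGMP effectors and phosphodiesterases were measured, 8 higher and 10 lower, with a median of -0.06 (0.09 without scaling). Only *Prkg1*, the cGMP-dependent protein kinase of heart and smooth muscle, passed 1.5-fold. It had 607 in the *H-Bmal1*-/- pool and 144 in the control pool, a log2 ratio of 1.92 that was 1.68 to 2.07 across the other ways of processing. *Pde2a*, a phosphodiesterase that cGMP stimulates, was at 0.58, just within the limit, and past it without scaling (0.73), with normexp (0.69), with E1A scaling and with cyclic loess. *Pde9a*, a phosphodiesterase selective for cGMP, was at 0.42. The lowest were *Rgs2* at -0.49, *Pln* (phospholamban) at -0.41 and *Rgs4* at -0.40. The 2 probes of *Rgs2* differed, at -0.85 and -0.13.

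Of 12 other guanylyl cyclases and nitric oxide synthases, 8 were measured and all 8 were below 0, with a median of -0.21. Without scaling 4 of the 8 were below 0 and the median was -0.06. Those at least 1.5-fold lower were *Gucy1b2*, a soluble cyclase subunit, at -0.72 (78.6 in the *H-Bmal1*-/- pool and 116 in the control pool), and *Gucy2c*, which was well above background in the control pool only. *Gucy1b2* was within the limit without scaling (-0.57) and with normexp (-0.46), and *Gucy2c* was at -0.16 with normexp, so that 1 gene passed without scaling and 0 with normexp. *Gucy2d* was at -0.45 and *Gucy1a1* at -0.27. *Nos3*, the endothelial nitric oxide synthase, was at -0.05, *Gucy1b1* at -0.08 and *Gucy1a2* at -0.13, each of which was above 0 without scaling. The 2 probes of *Gucy1a2* lay on opposite sides of 0, at -0.53 and 0.27.

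Of 32 regulators of transcription that act on *Nppa* and *Nppb*, 31 were measured. Of these, 1 was higher and 2 were lower by 1.5-fold or more, and with normexp 0 were lower by that much. Within the limit most values lay slightly below 0, with 24 of the 31 below 0 and a median of -0.24, but without scaling 18 were below 0 and the median was -0.09. *Ankrd1*, a stretch-responsive cofactor of the cardiomyocyte, was the only one past 1.5-fold on the higher side, with 83371 in the *H-Bmal1*-/- pool and 14641 in the control pool and a log2 ratio of 2.36. The next were *Nkx2-5* at 0.14 and *Irx5* at 0.13, and *Gata4* was at 0.08. *Tbx5*, which activates *Nppa*, was the lowest of those well above background on both arrays, with 456 in the *H-Bmal1*-/- pool and 712 in the control pool and a log2 ratio of -0.79 (-0.53 with normexp). *Tbx3*, a repressor of *Nppa*, was at -0.45 and *Nfatc2* at -0.43. *Hey2*, a repressor, was at least 1.94-fold lower, from 9.66 in the *H-Bmal1*-/- pool, not well above background, and 19.3 in the control pool, and was at -0.40 with normexp.

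A list of fetal and stress genes of the ventricle was described in the same way. Of 21 listed, 20 were measured, of which 10 were higher and 2 lower by 1.5-fold or more, with a median of 0.49. The count of 10 was 7 with normexp and 8 with only probes well above background on both arrays. The list also holds adult ventricular genes, among them *Myh6*, *Atp2a2* and *Kcnip2*, so that its median does not describe 1 class of genes. *Myh7*, the fetal myosin heavy chain of the mouse ventricle, had 49376 in the *H-Bmal1*-/- pool and 3437 in the control pool, a log2 ratio of 3.69. *Ccn2* was at 2.83 and *Acta1*, skeletal muscle actin, at 2.66, so that *Nppa* at 2.87 lay below *Myh7* alone. *Nppb* at 1.03 lay between *Ankrd2* (1.24, well above background in the *H-Bmal1*-/- pool only) and *Uchl1* (0.96). With normexp *Ankrd2* was at 0.19 and *Nppb* at 1.12, so that their order turned. The lowest were *Kcnip2* at -1.07, a subunit of the transient outward potassium channel, *Atp2a2* (SERCA2) at -0.67 (-0.51 without scaling, within the limit) and *Kcnd2* at -0.52. This list and the members share the same arrays and were both known to differ, so the likeness is a description.

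**Figure D5:**
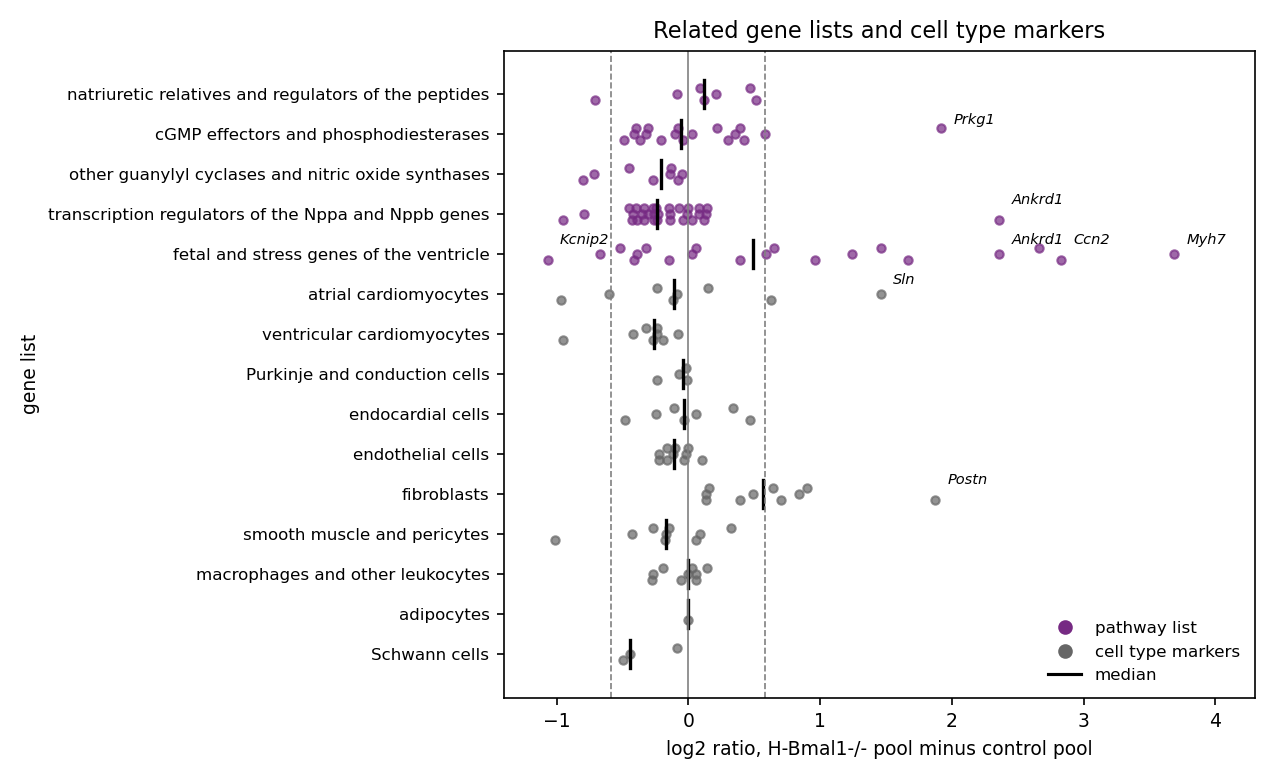
Log2 ratio of the *H-Bmal1*-/- pool over the control pool (x axis) for each measured gene of the 5 pathway lists (purple) and 10 cell type marker lists (gray), 1 list per row, with the median as a black line and dashed lines at 1.5-fold. The fetal and stress list reaches the highest values (*Myh7* at 3.69) and all fibroblast markers lie above 0.

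Markers of other cells were read beside these values. Of 11 atrial cardiomyocyte markers other than *Nppa*, 8 were measured, 3 higher and 5 lower, with a median of -0.11 (0.05 without scaling). Their summed level, as multiples of the 75th percentile, was 15.6 in the *H-Bmal1*-/- pool and 20.4 in the control pool. Such a sum is set mostly by the brightest probe, here *Kcnj5*, with 9.31 of it in the *H-Bmal1*-/- pool and 14.1 in the control pool, and does not describe the 8 markers as a class. *Sln*, sarcolipin, was at least 2.75-fold higher, from 33.7 in the *H-Bmal1*-/- pool and 2.94 in the control pool, where it was not well above background, and was at 0.43 with normexp. *Myl7*, the atrial myosin light chain, was at 0.63 (0.33 with normexp) and *Myl4* at 0.15, whereas the atrial channel genes *Kcnj3* and *Kcnj5* were at -0.97 and -0.60 (-0.57 and -0.51 with normexp, both within the limit). *Bmp10*, which marks atrial tissue, was not well above background on either array. The part of atrial tissue in the *Nppa* value was not tested.

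All 10 fibroblast markers were above 0, beside 6679 of all 13846 measured genes, and 5 of the 10 were higher by 1.5-fold or more. Their median was 0.57, and their summed level was 451 in the *H-Bmal1*-/- pool and 303 in the control pool. *Postn* was at 1.87, *Col1a1* at 0.90 and *Lum* at 0.84. All 8 ventricular cardiomyocyte markers were below 0, with a median of -0.26 and a summed level of 5399 in the *H-Bmal1*-/- pool and 6339 in the control pool. Without scaling 7 of the 8 were below 0 and the median was -0.11. *Npr3* is also a marker of endocardial cells, of whose 8 markers 7 were measured, with a median of -0.03 (0.12 without scaling) and summed levels of 28.7 in the *H-Bmal1*-/- pool and 28.5 in the control pool. *Npr3* is itself counted in these values, and *Vwf* alone made up 21.7 of the sum in the *H-Bmal1*-/- pool and 20.8 in the control pool. Of the 7 markers, 3 were above 0, *Npr3*, *Plvap* at 0.34 and *Vwf* at 0.06. The other 4 were below 0, the lowest being *Cytl1* at -0.48, *Nfatc1* at -0.25 and *Cgnl1* at -0.11. The medians were -0.11 for 10 endothelial markers (0.04 without scaling), -0.17 for 9 smooth muscle and pericyte markers, 0.00 for 9 of 11 leukocyte markers and -0.04 for 4 of 9 conduction markers (0.11 without scaling), of which *Cntn2* and *Hcn4* were not well above background. Of 4 Schwann cell markers 3 were measured, with a median of -0.44, and of 4 adipocyte markers 1, *Plin1*, was well above background in the *H-Bmal1*-/- pool only. The part of any change in cell makeup in the values of *Corin*, *Mme* or *Npr3* was not tested.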

How the data were processed

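Left ventricular RNA of 6 animals per genotype was pooled by the authors and hybridized to 1 array per pool. The deposited intensities are Agilent Feature Extraction processed signals, from which the software had subtracted background, linear and with no scaling from array to array (version 10.5.1.1 per the labels, 10.10.1.1 per the file headers). The authors' deposited value table held these intensities times 1 factor per array.

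The log2 processed signal minus the log2 75th percentile of noncontrol spots was computed for each array, and the control value was subtracted from the *H-Bmal1*-/- value. Control spots and 269 spots with an outlier flag were left out. Spots of a probe were averaged, and a gene was the mean of its probes that passed the background test on either array. A probe well above background on 1 array only entered as a bound, its bright signal against a floor for the dim array (the lowest signal there that passed the background test, or the probe's own signal if higher). "At least" is written where the floor was not the probe's own signal. A signal above the floor can fail the background test, so that "at least" holds only relative to the floor. Accessions gave a symbol to 26759 of 55676 probes through the RefSeq table of GRCm38.p6, used for names and gene order. Genes were counted at 1.5-fold. With 1 array per genotype no test was made. The only errors are the spread between spots and the software's own estimate, and the number of arrays limits the precision. The arrays shared 1 slide and 1 scan.

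The members, lists and alternatives were chosen with earlier results of these arrays known. Named genes were all 9 members with each probe, up to 3 highest and 3 lowest genes of each list well above background on both arrays, the 3 genes on either side of *Nppa* and of *Nppb* in the order of ratios, and *Arntl*. *Gucy2c*, *Hey2*, *Sln*, *Gata4*, *Ostn*, *Plin1*, *Ankrd2*, *Uchl1* and markers not above background were named after their values were seen. Some genes that these rules name are not reported here. The alternatives were no scaling, quantile normalization, and scaling to the median of the probes that passed the background test on both arrays. Scaling to 7 E1A spike-in probes, cyclic loess and normexp were also tried. Normexp had an offset of 50 and used the median signal, since the mean signal was not analysed here. The rest were the brightest probe, stricter and no filters on dim probes, flagged spots kept, the value table, and limits of 1.25- and 2-fold. Python 3.11.15, numpy 2.4.6, pandas 2.3.3, R 4.3.3 and limma 3.58.1 were used. The steps were tested on simulated data.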

Additional observations from a re-analysis of the deposited data

How the results depend on the processing

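With 1 array per genotype no replicate could be left out. No paired analysis was possible because each genotype has 1 array and the result comes from no test. The count of 2 members at least 1.5-fold higher was 3 without scaling and at the lowest limit tried (with *Npr3* added each time) and 2 otherwise. The count of 2 members at least 1.5-fold lower was 1 without scaling, where *Corin* was at -0.48, and 0 with normexp, where *Corin* was at -0.56 and *Mme* at -0.51. It was 1 when only probes well above background on both arrays were kept, which leaves *Mme* out, 1 at a limit of 2-fold, and 3 with no filter on dim probes, which adds *Npr1*, not well above background on either array. The median of the members was -0.06 with no filter, which adds *Npr1* and *Nppc*, and 0.06 to 0.27 otherwise. The median of the fetal and stress list was 0.23 with probes well above background on both arrays only, against 0.49, since *Tnnt3* and *Ankrd2* leave. The direction of *Nppa*, *Nppb*, *Npr3*, *Corin*, *Furin* and *Mme* was kept under every alternative that gave them a value, and that of *Npr2* was turned without scaling. Dim probes set the limit for *Mme*, *Npr1* and *Nppc*, which have signals under the lowest signal well above background on at least 1 array.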

Other observations

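Genes near *Nppb* and *Nppa* on chromosome 4, in the order of the RefSeq table of GRCm38.p6, differed less between the pools than the hormone genes did. On the side of *Nppb*, *Mfn2* was at -0.07 on the log2 scale (0.09 without scaling), *Plod1* at 0.09 and *2510039O18Rik* at 0.31. On the side of *Nppa*, *Clcn6* was at 0.08 (-0.07 with normexp) and *Agtrap* at 0.38. None of these 5 genes passed 1.5-fold, beside 2.87 for *Nppa* and 1.03 for *Nppb* between them. *Clcn6*, the gene next to *Nppa*, had a signal of 34.8 in the *H-Bmal1*-/- pool and 29.7 in the control pool. The genes were looked at because of their place, after the values of *Nppa* and *Nppb* were known.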
